A study of Homo sapiens with 4 samples.

Results

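The forkhead factors FOXO1, FOXO3 and FOXO4 were examined together with IRS1, IRS2, TXNIP, ARRDC4, PIK3IP1, CCNG2 and SESN3, genes known from other settings to be held down by PI3K signalling or to feed back on it. The 10 genes were listed by name and by no threshold on their values, though with earlier results of these data known, and all probes carrying a RefSeq accession of one of them were taken, which gave 16 of the 34127 probes and 10 of the 19733 named genes on the array. They were measured in Hs746T, an established gastric carcinoma cell line that carries both an exon-skipping mutation and an amplification of MET, the receptor tyrosine kinase for HGF. All cells were grown in DMEM with fetal bovine serum. Total RNA of each condition was hybridized to 1 single-colour Agilent human V2 expression array. The conditions were DMSO, the solvent control; PHA665752, a small-molecule inhibitor of the MET kinase; sc siRNA, a scrambled control; and MET siRNA, a single siRNA against MET. The siRNAs were delivered with a lipid reagent. For the arrays, neither the dose nor the duration of PHA665752 treatment is given in the sources used here. The inhibitor was set against its solvent and the knockdown against the scrambled siRNA, and the ratio of sc siRNA over DMSO showed how far the controls lay apart.

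FOXO proteins are transcription factors that AKT, the kinase activated downstream of PI3K, phosphorylates and keeps out of the nucleus. When PI3K signalling is low, FOXO proteins enter the nucleus and switch on genes of cell cycle arrest, stress resistance and energy metabolism, together with receptors and adaptors that can restart the pathway, such as INSR and IRS2. TXNIP and ARRDC4 are in addition classical targets of MondoA, a factor that senses glucose phosphates. The arrays measured transcripts and not the phosphorylation or location of FOXO proteins.

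Values are processed signals, the linear intensity of a probe after background subtraction by the scanner software. Ratios are differences of log2 processed signal after subtraction of the 75th percentile of each array. A log2 ratio can therefore depart from that of the signals beside it, which matters most for ratios near 0. That percentile was a signal of 990.1 on the DMSO array and 853.5 on the PHA665752 array. Equal signals on these arrays thus give a ratio above 0. A gene with several probes is represented by its brightest probe, and a change past 2-fold, a log2 ratio above 1 or below -1, was the call. With 1 array per condition there was no replicate, no test and no error between cultures. Precision is limited by the number of arrays. The SD quoted with a ratio combines the noise between spots within each array of the pair, for probes of that signal. That noise came from probes spotted 10 times. The SD is smaller where more spots of a probe were averaged, and it covers nothing else. Each array received a share of the RNA, so fewer cells and less RNA per cell cannot be told apart.

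The MET probe checked the label of the knockdown, with a log2 ratio of -1.33. Under the inhibitor it was -0.93, within 2-fold. A transcript does not show whether the kinase was blocked, so the inhibitor label was not checked. The MET siRNA array stood apart technically, with 61.1% of probes well above background against 67.4% to 68.2% on the other arrays and 5.58% of spots left out as outliers against 1.69% to 2.21%. Of the epithelial markers, EPCAM, KRT8, KRT18 and KRT19 were well above background on all 4 arrays, whereas CDH1 had signals of only 10.4 to 33.0. The mesenchymal markers CDH2, FN1 and ZEB1 were well above background on all arrays, and VIM on the DMSO and PHA665752 arrays, its spots on the siRNA arrays being left out. Of the gastric markers, TFF1, TFF2 and MUC6 were detected at signals of 41.7 to 163, GKN1 was not well above background on any array, and CLDN18 was well above background on the MET siRNA array but not on the PHA665752 and sc siRNA arrays, its DMSO spot being left out. Of the leukocyte and endothelial markers, CD3E was not well above background on any array and the brightest PTPRC probe gave 22.7 to 37.8, while CDH5 gave 63.5 to 88.5 and the brightest PECAM1 probe 304 to 1846. With PHA665752, FN1 rose to a log2 ratio of 1.96 and PECAM1 fell to -2.39, while ZEB1 stood at -0.73 by its brighter probe and -1.08 by the other. After knockdown these brightest probes gave 0.48, -0.44 and -0.53 in the same order. The part of these markers in the values that follow was not tested.

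With PHA665752, 5 of the 10 genes rose past 2-fold and 0 fell. They were TXNIP, PIK3IP1, FOXO1, FOXO4 and SESN3, and their ratios ranged from 2.46-fold to 12.6-fold, that of PIK3IP1 being a lower bound. Over all named genes, 9.82% were past 2-fold higher with PHA665752 and 5.97% lower, genes without a ratio counting as not past it. The median log2 ratio of the 9 genes that had one was 1.30, against 0.076 over all named genes with a ratio. FOXO3, IRS1, IRS2 and CCNG2 were within 2-fold, and ARRDC4 had no ratio. With MET siRNA, TXNIP was the single gene of the 10 past 2-fold, where 1.43% of all named genes were higher and 0.492% lower. The median log2 ratio of the 8 genes with a ratio was 0.25, against -0.017 over all named genes. Between the control arrays 0 of the 10 genes passed 2-fold, where 2.13% of named genes were higher and 0.862% lower with sc siRNA. By probe, 8 of the 16 probes were past 2-fold higher with PHA665752, where 8.82% of all probes were, and 1 with MET siRNA, where 1.33% were.

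**Figure D1:**
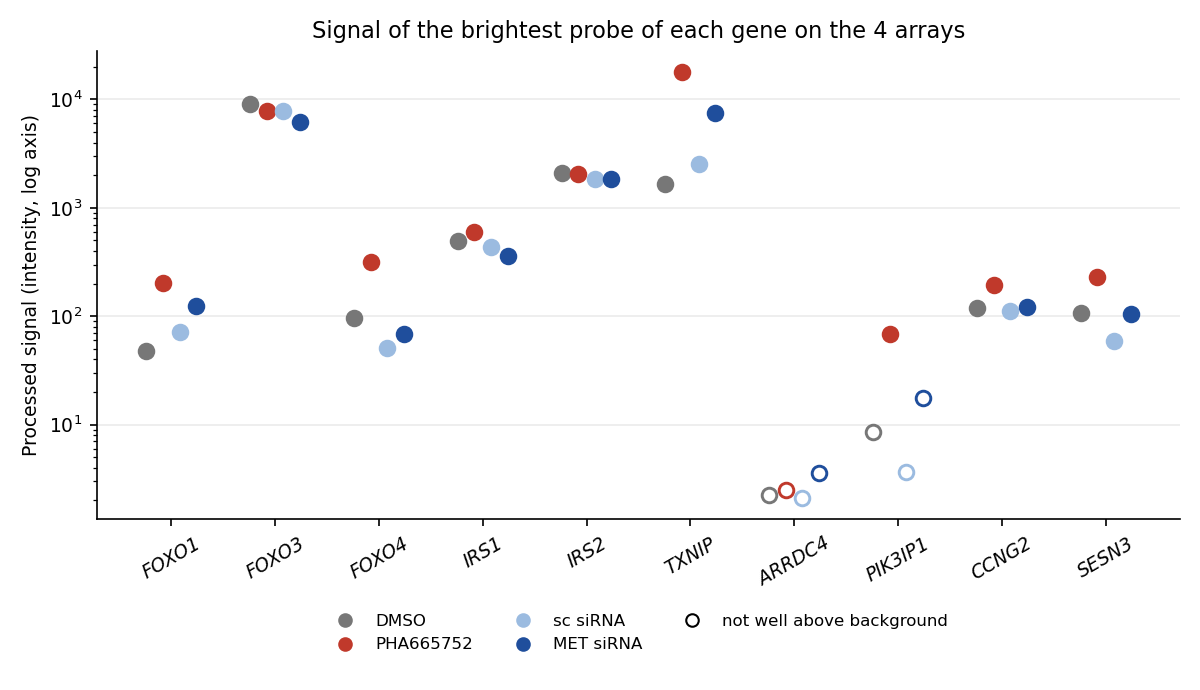
Processed signal (log scale) of the brightest probe of each of the 10 genes on the DMSO, PHA665752, sc siRNA and MET siRNA arrays, 1 point per array with no error bar because each condition had 1 array, and open circles where the probe was not well above background. For TXNIP, FOXO1, FOXO4, SESN3, PIK3IP1, CCNG2 and IRS1 the highest of the points is the PHA665752 array. The points of FOXO3 and IRS2 lie close together and those of ARRDC4 stay near background.

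The promoters of 3 of the risen genes are shown because each holds the core sequence that FOXO proteins are known to bind. In the RefSeq annotation of GRCh38.p14, windows of 250 bases before to 50 after the annotated start were searched on both strands for GTAAACA, whose reverse complement is TGTTTAC. All 10 genes had at least 1 window. Shown 5′ to 3′ on the strand of the gene are 150 bases before and 30 bases after the start, with the match in capitals. FOXO4 lies at chrX:71095701-71095880 on the plus strand, TXNIP at chr1:145996550-145996729 on the minus strand and PIK3IP1 at chr22:31292459-31292638 on the minus strand.
FOXO4: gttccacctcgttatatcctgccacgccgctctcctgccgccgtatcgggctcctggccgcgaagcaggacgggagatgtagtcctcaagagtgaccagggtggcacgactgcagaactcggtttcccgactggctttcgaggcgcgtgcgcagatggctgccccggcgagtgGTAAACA
TXNIP: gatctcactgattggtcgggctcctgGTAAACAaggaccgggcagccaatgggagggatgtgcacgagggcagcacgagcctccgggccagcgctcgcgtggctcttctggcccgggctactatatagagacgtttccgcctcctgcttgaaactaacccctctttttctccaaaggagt
PIK3IP1: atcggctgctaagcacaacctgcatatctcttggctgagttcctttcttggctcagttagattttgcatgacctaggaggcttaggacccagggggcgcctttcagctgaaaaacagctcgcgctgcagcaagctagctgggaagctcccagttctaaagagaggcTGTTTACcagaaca
The match began 124 bases before the start in TXNIP, and after the start in FOXO4 and PIK3IP1, at bases 24 and 17. Of all 35116 promoter windows, 3.42% held GTAAACA or its reverse complement, against 3 of the 15 windows of the 10 genes, each in a different gene. The related insulin response sequence CAAAACA, searched on both strands, was found in 4.92% of all windows and in IRS2, where it began 40 bases before the start on the opposite strand. The palindrome CACGTG, the E box core to which MondoA and its relatives can bind as part of a longer element, was found in 7.26% of all windows and in IRS1, ARRDC4 and CCNG2. FOXO1, FOXO3 and SESN3 held none of these letters in their windows. A match is a description of the letters and not a measured binding site. Only exact letters were searched. An element with E boxes other than CACGTG was not looked for, in TXNIP or the other genes.

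FOXO1, the factor best known for insulin-dependent control of metabolism, was measured by probe A_24_P22079 (NM_002015, chromosome 13). Its processed signal was 48.0 in DMSO cells, 202 in PHA665752 cells, 71.6 in sc siRNA cells and 125 in MET siRNA cells. The PHA665752 array was highest and the DMSO array lowest. FOXO1 rose 4.89-fold with PHA665752, a log2 ratio of 2.29 (spot noise SD 0.14), which placed it 236th from the top of the 14810 named genes with a ratio. With MET siRNA the log2 ratio was 0.76 (spot noise SD 0.14), and its 1.70-fold was 487th of 13808 genes. The control arrays lay as far apart, with a log2 ratio of sc siRNA over DMSO of 0.83 (spot noise SD 0.18). With normexp background correction and its added offset of 50, which together shrink the ratios of dim probes, the inhibitor ratio of FOXO1 was 1.39.

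FOXO4, an X-linked member of the family, had 2 probes to NM_005938. The brighter, A_24_P379165, gave a signal of 97.0 in DMSO cells, 314 in PHA665752 cells, 50.6 in sc siRNA cells and 69.3 in MET siRNA cells. Both siRNA arrays thus lay below the DMSO array, and PHA665752 lay above all the others. FOXO4 rose 3.76-fold with PHA665752, a log2 ratio of 1.91 (spot noise SD 0.14), and the second probe, A_33_P3249793, with signals of 18.2 to 72.8, gave 3.41-fold. With MET siRNA the log2 ratios of the probes were 0.41 and 0.36, within 2-fold. Between the controls the probes were less alike, at -0.68 and -0.19.

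FOXO3, a FOXO factor of stress responses and longevity, did not share this pattern. All 3 of its probes (NM_001455, chromosome 6) had log2 ratios between -0.020 and 0.0099 with PHA665752. The brightest, A_33_P3240392, gave 9092 in DMSO cells, 7891 in PHA665752 cells, 7806 in sc siRNA cells and 6208 in MET siRNA cells. With MET siRNA the 3 probes lay close together at log2 ratios of -0.36 to -0.38, larger than the spot noise SD of 0.065 to 0.080 and within 2-fold. The other probes had signals of 4335 to 6161 and of 305 to 382, and the dimmest, A_32_P102062, stood apart between the controls at a log2 ratio of 0.34. With PHA665752 the FOXO3 transcripts were thus nearly level where those of FOXO1 and FOXO4 were past 2-fold.

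The insulin receptor substrates IRS1 and IRS2 are adaptors that carry signals from the insulin and IGF1 receptors to PI3K, and neither passed 2-fold in any pair. IRS2, measured by A_24_P154037 (NM_003749), gave 2078, 2056, 1857 and 1830.1 on the DMSO, PHA665752, sc siRNA and MET siRNA arrays. These signals were almost level, and its log2 ratios were 0.20, -0.068 and 0.091 with PHA665752, with MET siRNA and between controls. The PHA665752 signal of IRS2 was not above that of DMSO, so its ratio of 0.20 came from the scaling. The brighter IRS1 probe, A_24_P225679 (NM_005544), gave 497 in DMSO cells, 605 in PHA665752 cells, 436 in sc siRNA cells and 360.3 in MET siRNA cells. Its log2 ratio was 0.50 under the inhibitor and -0.32 after knockdown, of opposite sign and each beyond the spot noise SD of 0.080 to 0.083. The dimmer IRS1 probe, A_24_P802145, with signals of 49.1 to 117, stood at 0.98 and -0.46, the first just under the 2-fold limit.

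TXNIP, an arrestin-domain protein that binds thioredoxin and restrains glucose uptake, had the largest measured ratio of the 10 genes in both treatments. Its probe A_23_P97700 (NM_006472, chromosome 1) gave 1645 in DMSO cells, 17893 in PHA665752 cells, 2524 in sc siRNA cells and 7432 in MET siRNA cells. Each treated array was above both control arrays. TXNIP rose 12.6-fold with PHA665752, a log2 ratio of 3.66 (spot noise SD 0.066), and 10 of the 14810 ranked genes lay higher. It rose 2.85-fold with MET siRNA, a log2 ratio of 1.51 (spot noise SD 0.065), 110th of 13808 genes. The controls differed by a log2 ratio of 0.87 in the same direction, or 1.83-fold. ARRDC4, its arrestin-domain relative on chromosome 15, was not well above background on any array, with signals of 2.10 to 3.55, and no ratio was formed.

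PIK3IP1, a transmembrane protein that binds the catalytic subunit of PI3K and damps it, was measured by A_23_P109488 (NM_052880, chromosome 22). Its signal was 8.47 in DMSO cells, 69.1 in PHA665752 cells, 3.63 in sc siRNA cells and 17.7 in MET siRNA cells, and it was well above background on the PHA665752 array alone. PIK3IP1 was at least 7.40-fold higher with PHA665752 than with DMSO, taking for DMSO the lowest signal among the probes well above background on that array in place of the dim signal. On the DMSO, sc siRNA and MET siRNA arrays it was not well above background, so no ratio was formed for MET siRNA or for the controls. With normexp its log2 ratio under the inhibitor was 1.03, against 2.89 at the bound.

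SESN3, a sestrin that restrains mTORC1 and raises antioxidant defence, gave 108 in DMSO cells, 230.3 in PHA665752 cells, 58.5 in sc siRNA cells and 105 in MET siRNA cells from probe A_23_P361448 (NM_144665, chromosome 11). SESN3 rose 2.46-fold with PHA665752, a log2 ratio of 1.30 (spot noise SD 0.083), and was just within 2-fold at 0.93 with normexp. With MET siRNA the log2 ratio was 0.80 (spot noise SD 0.14), and the MET siRNA signal was close to that of DMSO. The sc siRNA array was the lowest, with a log2 ratio over DMSO of -0.64, and this array enters both the knockdown and the control ratio. CCNG2, an atypical cyclin that slows the cell cycle, had 3 probes to NM_004354 that differed in size of change. The brightest, A_24_P80532, gave 119.8 in DMSO cells, 194 in PHA665752 cells, 111 in sc siRNA cells and 123 in MET siRNA cells, a log2 ratio of 0.91 with PHA665752. The other 2 probes, A_33_P3385870 with signals of 98.7 to 203 and A_24_P12065 with 18.3 to 53.5, stood at 1.13 and 1.60, so 2 of the 3 were past 2-fold and the gene was not by its brightest probe. With MET siRNA the CCNG2 probes gave log2 ratios of 0.10, 0.10 and 0.61.

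**Figure D2:**
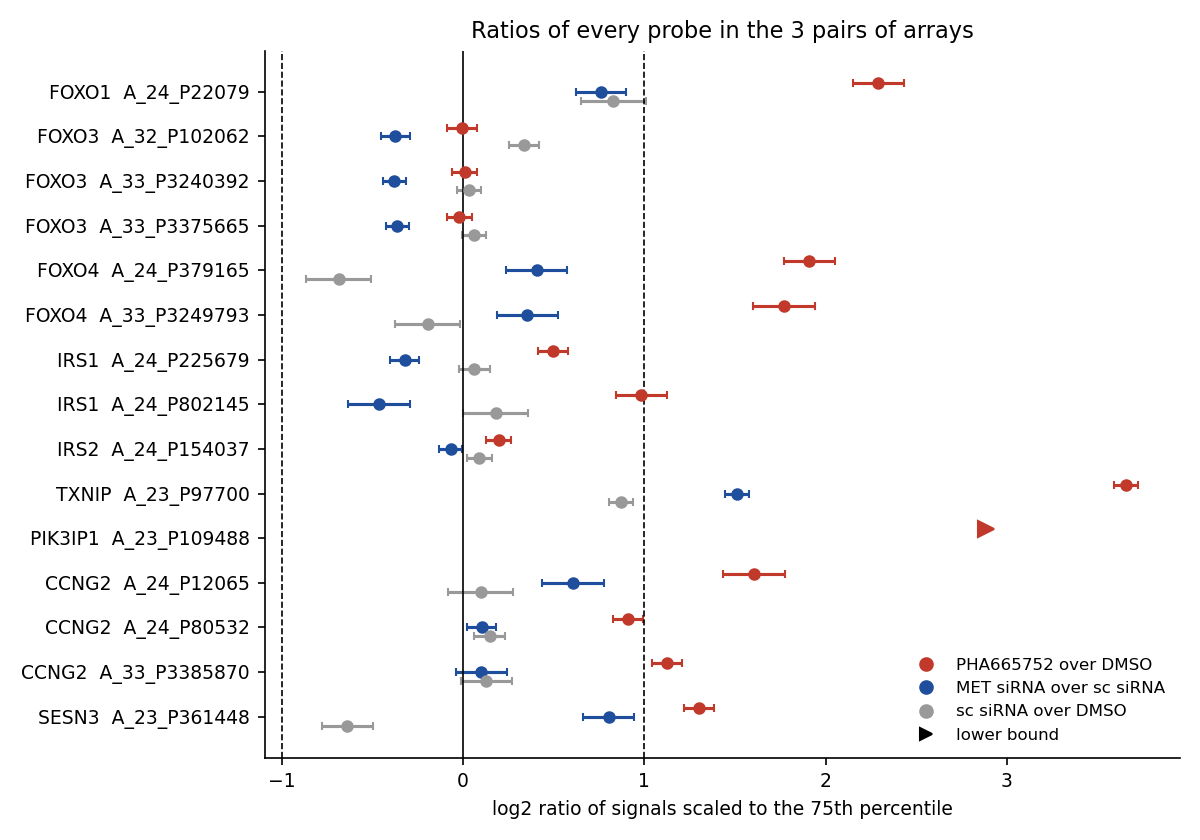
Log2 ratio of each of the 14 or 15 probes with a ratio, for PHA665752 over DMSO, MET siRNA over sc siRNA and sc siRNA over DMSO, bars of 1 spot noise SD to each side and dashed lines at the 2-fold limits. The inhibitor ratios of TXNIP, PIK3IP1 (a lower bound), FOXO1 and FOXO4 lie clear of the limit, and the CCNG2 probes lie on both sides of it.

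Setting both treatments side by side, 5 of the 8 genes with both ratios, or 62.5%, had the same sign in both, all 5 of them higher. Over all named genes with both ratios the share of the same sign was 69.6%, and 4728 of the 13440 were higher in both. The 5 were FOXO1, FOXO4, TXNIP, CCNG2 and SESN3, and each had the larger ratio with PHA665752. The inhibitor pair was also the wider over all named genes, with 15.8% past 2-fold against 1.92% with MET siRNA. The remaining 3, FOXO3, IRS1 and IRS2, were above 0 with PHA665752 and below it with MET siRNA, but the inhibitor sign of FOXO3 and IRS2 and the knockdown sign of CCNG2 turned under other scalings or background corrections.

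**Figure D3:**
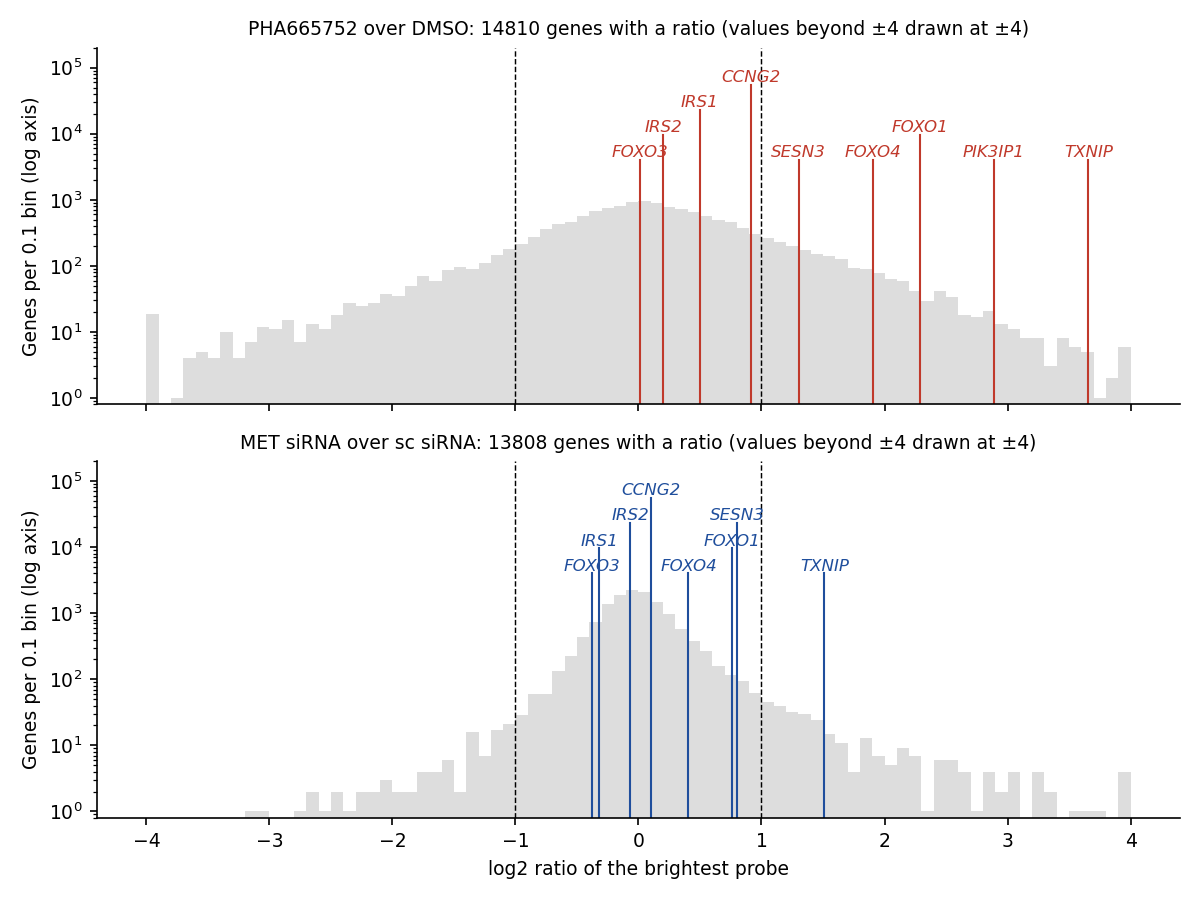
Number of named genes (log axis) by log2 ratio for PHA665752 over DMSO (top) and MET siRNA over sc siRNA (bottom), with lines at those of the 10 genes that have a ratio and dashed lines at the 2-fold limits. In the inhibitor pair TXNIP and PIK3IP1, at its bound, sit far in the upper tail, with FOXO1 and FOXO4 below them, while FOXO3 and IRS2 lie near the middle.

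The other genes of the pathway were taken from 6 lists of 85 genes, of which 84 had a probe. With PHA665752, 11 were past 2-fold higher and 4 lower, 17.9% of the 84, against 15.8% over all named genes. Genes without a ratio counted as not past 2-fold. A ratio was formed for 74 of the 84 and for 14810 of the 19733 named genes. The shares are thus not alike in how many genes could pass, and no excess is read from them. With MET siRNA 4 were higher and 0 lower. Between the controls 2 were higher, TRIB3 and TNFSF10, and 1 lower, USP7, 3.57% against 2.99% over all named genes. The shares to set beside each list below are those of all named genes. With PHA665752, 9.82% rose and 5.97% fell, and with MET siRNA 1.43% rose and 0.492% fell.

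The largest number came from the other known FOXO target genes, which were also the longest list. With PHA665752, 7 of 22 rose and 1 fell, where 9.82% and 5.97% of all named genes did. The median log2 ratio was 0.99 over the 16 with a ratio. After knockdown 1 of the 22 rose, where 1.43% of all named genes did, and the median of 16 ratios was 0.37. FBXO32, the muscle atrophy ubiquitin ligase atrogin-1, gave 3703 with DMSO, 35154 with PHA665752 and 6121 with sc siRNA, and rose with the inhibitor by a log2 ratio of 3.46. Its MET siRNA spot, of signal 18162, was left out as a background outlier, and the log2 ratio would otherwise have been 1.52. SOD2 had no inhibitor ratio because its PHA665752 spot, of signal 6438, was also left out. The log2 ratio of SOD2 would otherwise have been 0.11. PDK4, a kinase that turns glucose carbon away from oxidation, gave 79.1, 252, 55.4 and 184 on the DMSO, PHA665752, sc siRNA and MET siRNA arrays, with log2 ratios of 1.88 under the inhibitor and 1.68 after knockdown. It was the single gene of this list past 2-fold with both treatments, though at 0.97 after knockdown with normexp. GABARAPL1, an autophagosome protein, had log2 ratios of 2.02 and 0.98 by its brightest probe, and 1.86 and 0.43 by the other. BBC3, the proapoptotic PUMA, had 1.75 and 0.87. MXI1 was within 2-fold with PHA665752 at 0.94 by its brightest probe, while its other probes stood at 1.12 and 1.61. GADD45A, a growth arrest gene, was at 1.26 and 0.43, and CAT, which is catalase, at 1.26 and 0.37. BCL6, a transcriptional repressor, was at 1.06 and 0.75, of which the first was 0.81 with the 50th percentile. Some genes of the list also differed between the controls. FBXO32 and GADD45A had log2 ratios of 0.98 and 0.97 toward sc siRNA. TNFSF10 had 3.31 between the controls, and 0.064 under the inhibitor and 0.91 after knockdown. BNIP3, a mitophagy receptor that is also a hypoxia gene, fell to a log2 ratio of -1.36 under the inhibitor and was at -0.20 after knockdown.

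Of the receptors, docking proteins and PI3K subunits, 2 of 13 rose with PHA665752, where 9.82% of all named genes did, and 11 had a ratio. IGF1R had none because its PHA665752 spot, of signal 117, was left out as a background outlier. Its log2 ratio would otherwise have been 2.09. ERBB3 was at 0.69 by its brightest probe and at 1.75 by a dimmer one. INSR, the insulin receptor, gave 315 in DMSO cells, 972 in PHA665752 cells, 197 in sc siRNA cells and 454 in MET siRNA cells. Its log2 ratios were 1.84 under the inhibitor and 1.16 after knockdown, and it was the single gene of the list past 2-fold with MET siRNA. GAB2, a docking protein that recruits PI3K, had a log2 ratio of 1.16 under the inhibitor, or 0.91 with the 50th percentile, and 0.38 after knockdown. Of the 13 brakes on PI3K, AKT and mTORC1, DEPTOR rose and GRB14 fell with PHA665752, and DEPTOR and TRIB3 rose after knockdown. DEPTOR, an inhibitor of mTOR, gave 109, 632, 81.1 and 189 on the DMSO, PHA665752, sc siRNA and MET siRNA arrays, log2 ratios of 2.76 and 1.18. GRB14, an adaptor that inhibits the insulin receptor, had a log2 ratio of -1.23 under the inhibitor and -0.47 after knockdown. TRIB3, a pseudokinase that binds AKT, was at -0.15 with PHA665752 and rose with MET siRNA to a log2 ratio of 1.09, and it also differed between the controls, with a log2 ratio of 1.25 toward sc siRNA. With each array divided by the median of its probes well above background, the knockdown ratios of INSR, DEPTOR and TRIB3 were 0.86, 0.88 and 0.79, all within 2-fold.

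Of FOXO6 and the regulators of FOXO proteins, 11 of 12 had a probe, FOXO6 itself having none. SKP2, the ubiquitin ligase subunit that targets FOXO1, was the single gene past 2-fold with PHA665752, where after knockdown there were 0. SKP2 gave 121 in DMSO cells, 33.9 in PHA665752 cells, 110.0 in sc siRNA cells and 114 in MET siRNA cells, a log2 ratio of -1.62 with PHA665752, or -0.79 with normexp. Of the 14 genes of the MondoA system and of the arrestin-domain and thioredoxin relatives, ARRDC2, an arrestin-domain relative of TXNIP, had a log2 ratio of 1.15, or 0.90 with the 50th percentile, and HK2, a hexokinase, -1.24 with PHA665752, and 0 passed 2-fold with MET siRNA. Of the 11 cyclin G, sestrin and GATOR relatives, 0 passed 2-fold with either treatment.

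**Figure D4:**
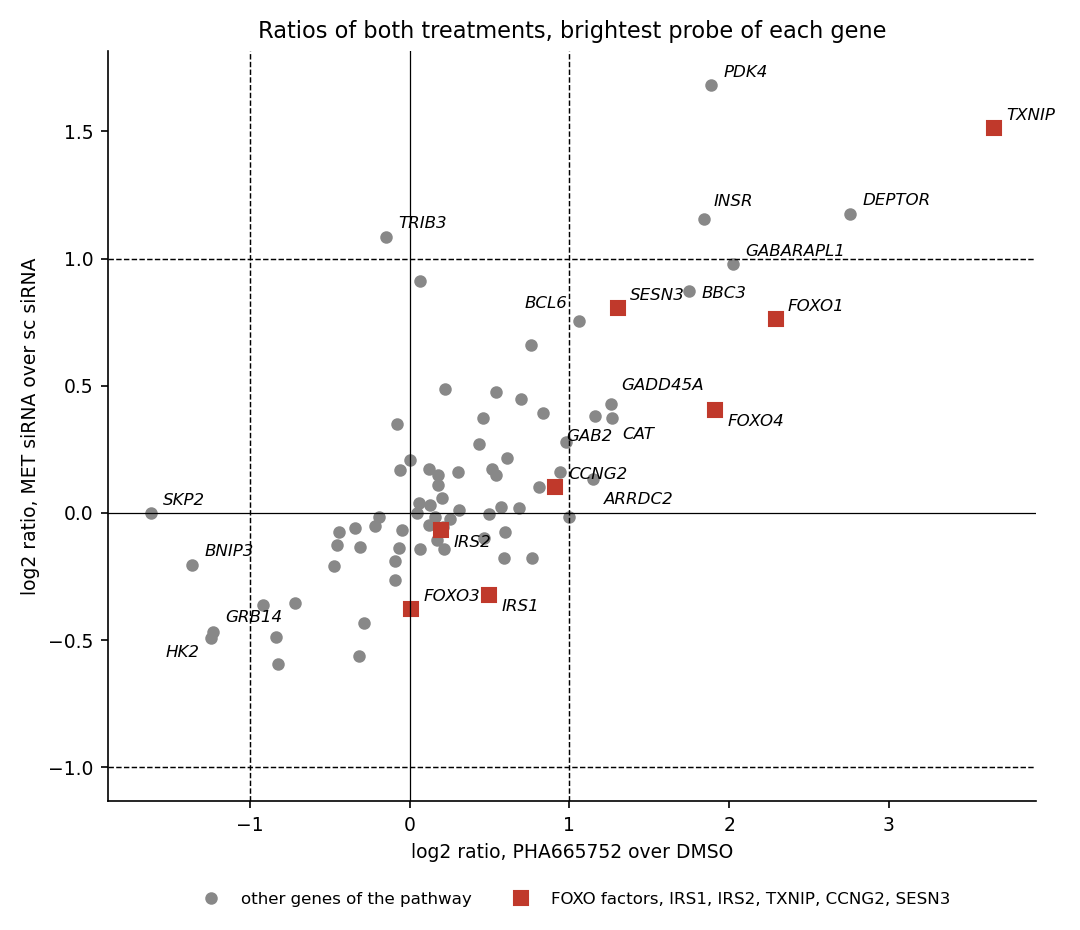
Log2 ratio with PHA665752 (x axis) and with MET siRNA (y axis) of the genes with both ratios, red squares for 8 of the 10 genes and grey circles for the other pathway genes, dashed lines at the 2-fold limits. TXNIP lies at the far right, PDK4, INSR and DEPTOR are the other pathway genes past 2-fold with both treatments, and FOXO3, IRS1 and IRS2 lie below 0 with MET siRNA.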

How the data were processed

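Total RNA of Hs746T cells was measured on 4 single-colour arrays, 1 per condition. The authors deposited the scanner output, whose processed signal is a linear intensity per spot from Feature Extraction (11.5.1.1 in the file headers), background already subtracted and arrays not normalized to each other. The deposited series matrix held the same signals for probes spotted once, up to rounding, and served as an alternative.

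Control spots and spots with an outlier mark, for the feature or its background, were dropped. Each array was scaled to its 75th percentile on the log2 scale and the spots of a probe averaged. Where a probe was well above background on a single array of a pair, a bound was taken, and where on neither, no ratio. Probes were named by RefSeq accession from a table of GRCh38.p14, which named 25771 of 34127 probes (75.5%). The brightest probe stood for its gene.

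With 1 array per group no test was possible, and past 2-fold was the call. The members and gene lists were chosen with earlier results of these data known. Named were all 10 genes, MET, the pathway genes past 2-fold in a treatment, and for each of the 10 past 2-fold with PHA665752 the 3 genes nearest in their ratios. The cell type markers named are those of a separate list of epithelial, gastric, mesenchymal, leukocyte and endothelial genes. TNFSF10, USP7, IGF1R, ERBB3, MXI1 and SOD2 fall outside both and were named after their values were seen. All arrays lay on 1 slide and shared 1 scan time, so neither was a batch. The alternatives were other scalings, background corrections, filters and probe choices and the series matrix. Promoter windows were searched for exact letters on both strands. The calculation of ratios and bounds was tested on simulated data. Normexp, on the median spot signal and with an offset of 50 added, used limma 3.58.1 in R 4.3.3. All else used Python 3.11.15 with pandas 2.3.3, numpy 2.4.6 and matplotlib 3.10.9.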

Additional observations from a re-analysis of the deposited data

How the results depend on the processing

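No paired analysis was possible because each condition had 1 array. Over the 10 alternatives, 0 of the 10 genes was past 2-fold lower in any pair. TXNIP was past 2-fold in both treatments throughout, with a log2 ratio of 3.41 to 3.75 with PHA665752 and 1.21 to 1.56 with MET siRNA, and with PHA665752 FOXO1 (1.39 to 2.29) and FOXO4 (1.43 to 1.91) also stayed past it. PIK3IP1 did so in the 9 alternatives that gave it a value (1.03 to 3.24). SESN3 with PHA665752 dropped to 0.93 with normexp, CCNG2 passed 2-fold at 1.13 with the median over its probes, IRS2 turned to -0.047 with the 50th percentile, and FOXO3 changed sign in 4 alternatives (-0.24 to 0.11). The median of the genes with PHA665752 was 1.06 with the 50th percentile, 1.11 with quantile normalization, 1.21 with the median of probes well above background, 0.93 with normexp, and 1.11 both with no filter on dim probes and with probes well above background on both arrays. With MET siRNA it was -0.046 with the median of probes well above background, 0.080 with normexp and 0.56 with no filter, which also raised the count past 2-fold to 2 by adding PIK3IP1. Other pathway genes past 2-fold with MET siRNA numbered 1 with the median of probes well above background and 1 with normexp. Between the controls the median was -0.022 with the 50th percentile and the pathway count was 5 with no filter. The median of all genes moved by -0.25 with the 50th percentile in the PHA665752 pair and by -0.30 with the median of probes well above background in the MET siRNA pair, so the genes are to be read relative to it, and by 0.13 with no filter in the PHA665752 pair. The cause was not tested for any of these. DEPTOR and INSR with MET siRNA were within 2-fold both with normexp and with the median of probes well above background. Signal over background limits ARRDC4 and PIK3IP1.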

Other observations

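By Euclidean distance over the 3 log2 ratios, among 13074 genes well above background on all 4 arrays, the genes nearest to FOXO1 were CCR3 (0.296), PPP1R9A (0.379) and LRRC56 (0.387). The genes nearest to FOXO4 were FBN1 (0.13), the extracellular matrix protein fibrillin-1, TENM1 (0.185) and PAQR6 (0.189). Nearest to TXNIP were ATF3 (0.325), a stress-induced transcription factor, DPP4 (0.502) and KPNA7 (0.63). For ATF3 the log2 ratio was 3.61 under the inhibitor, 1.67 after knockdown and 1.15 between controls. Nearest to SESN3 were FBXO2 (0.054), CSGALNACT1 (0.174) and PTPRD (0.191). PIK3IP1 was above background on 1 array and was not ranked. The control ratio shares an array with each of the others, and every ratio rests on 1 array per condition.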
